A study of Mus musculus with 6 samples.

Results

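The genes described here set the entry into the cell cycle and the exit from it: the D cyclins Ccnd1, Ccnd2 and Ccnd3, the CDK inhibitors Cdkn1a, Cdkn1b and Cdkn1c, the retinoblastoma gene Rb1, and the p53 gene Trp53 with its targets Ccng1 and Mdm2. Members were all non-control probe sets whose platform annotation gives exactly 1 of these gene symbols. That rule found 26 of the 45037 non-control probe sets, for 9 of the 10 genes (18193 genes were named in all), and Trp53 was not analysed here. RNA came from the ventral forebrain of mouse embryos at E13.5 (E counts days of embryonic development), called ventral telencephalon on the sample labels. One group was homozygous for a knockout of the basic helix-loop-helix factor Olig2 (Olig2-/-), and the other was wild type (Olig2+/+). Each array held RNA pooled from 3 brains. Of 5 stated replicates per genotype, 3 were analysed here, which were replicates 2, 4 and 5 of the knockout and replicates 1, 4 and 5 of the wild type. No source used here states which part of Olig2 was removed or the strain.

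In neural progenitors, D cyclins activate the kinases CDK4 and CDK6, which phosphorylate the RB protein and so release the E2F factors that drive the genes of S phase. Proteins of the CIP/KIP family (Cdkn1a encodes p21, Cdkn1b p27 and Cdkn1c p57) restrain these kinases, and p27 and p57 are known for holding newborn neurons out of the cycle. The factor p53 answers DNA damage and other stress by raising Cdkn1a, Ccng1 and Mdm2, and the MDM2 protein in turn marks p53 for degradation. Olig2 is known from work on neural progenitors and glioma as a repressor of Cdkn1a.

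Of the 9 member genes, 5 had promoter windows in the RefSeq table (GRCm38.p6), 7 windows in all, each from 250 bases before to 50 bases after a transcript start. They are shown because p53 acts on Cdkn1a and Ccng1 through paired half-sites and because Olig2, like other basic helix-loop-helix factors, binds the letters CANNTG. In the 4 windows below, written 5′ to 3′ on the strand of the gene, capital runs of 6 letters mark CANNTG and longer capital runs mark half-sites of a p53 pair.
Cdkn1a, upstream start (chr17:29090729-29091028, plus strand): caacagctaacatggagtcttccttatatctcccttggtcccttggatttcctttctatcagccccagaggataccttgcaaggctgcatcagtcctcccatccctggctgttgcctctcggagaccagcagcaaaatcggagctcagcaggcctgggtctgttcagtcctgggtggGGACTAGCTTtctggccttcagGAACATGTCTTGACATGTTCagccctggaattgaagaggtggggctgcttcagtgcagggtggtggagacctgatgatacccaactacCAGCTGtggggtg
Cdkn1a, downstream start (chr17:29093519-29093818, plus strand): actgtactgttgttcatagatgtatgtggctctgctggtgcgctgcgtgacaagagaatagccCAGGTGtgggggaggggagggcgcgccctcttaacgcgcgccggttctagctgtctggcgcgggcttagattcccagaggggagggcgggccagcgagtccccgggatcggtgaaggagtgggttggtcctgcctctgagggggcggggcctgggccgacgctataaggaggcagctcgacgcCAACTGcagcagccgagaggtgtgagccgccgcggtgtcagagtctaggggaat
Ccng1 (chr11:40755237-40755536, minus strand): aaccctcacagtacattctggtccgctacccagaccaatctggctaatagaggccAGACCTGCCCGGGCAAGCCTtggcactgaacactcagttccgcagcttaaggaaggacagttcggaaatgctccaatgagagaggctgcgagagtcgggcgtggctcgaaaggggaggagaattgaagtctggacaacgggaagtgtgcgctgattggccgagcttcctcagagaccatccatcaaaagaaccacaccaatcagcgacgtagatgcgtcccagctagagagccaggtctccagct
Mdm2 (chr10:117710709-117711008, minus strand): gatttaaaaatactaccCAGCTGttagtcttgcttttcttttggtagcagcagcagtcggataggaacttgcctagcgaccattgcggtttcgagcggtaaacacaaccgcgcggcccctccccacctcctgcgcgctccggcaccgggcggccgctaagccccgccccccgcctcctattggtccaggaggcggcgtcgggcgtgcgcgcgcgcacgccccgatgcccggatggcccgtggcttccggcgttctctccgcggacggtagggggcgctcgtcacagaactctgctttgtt

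A p53 pair was counted where 2 copies of the p53 half-site decamer, separated by 0 to 13 bases, together had at most 1 mismatch, and both this decamer and CANNTG read alike on both strands. The upstream window of Cdkn1a held 2 such pairs that share a half-site. One begins 73 bases before the start, with a gap of 12 bases and 0 mismatches, and the other begins 51 bases before it, with no gap and 1 mismatch. The window of Ccng1 held 1 pair, 195 bases before the start, with no gap and 1 mismatch. Of all 32851 promoter windows in the table, 1.09% held a pair. The Mdm2 window held a single half-site without a mismatch, found in 8.36% of all windows, 186 bases before the start, while the p53-responsive promoter of Mdm2 is known to lie in its first intron. CANNTG occurred at 1 place in the upstream Cdkn1a window, at 2 places in the downstream one, at 1 place in the Mdm2 window, and in 72.3% of all windows. The single window of Cdkn1b and both windows of Ccnd3 held neither a pair nor CANNTG. These matches are letters in a window and not evidence of binding.

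**Figure D1:**
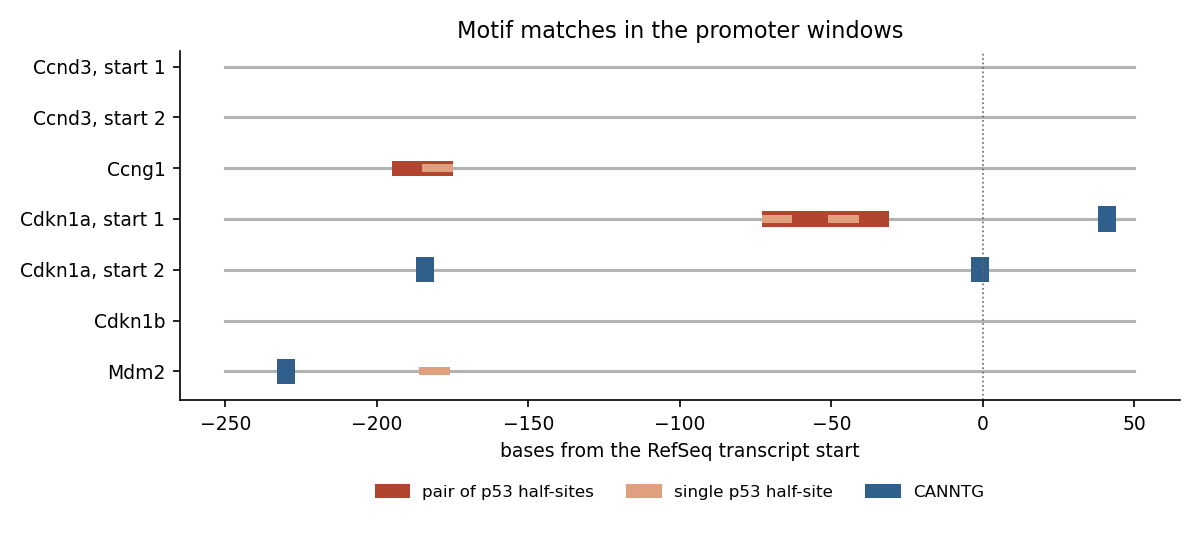
Positions of motif matches in the 7 promoter windows of 5 member genes, with the distance in bases from the RefSeq transcript start on the x axis and 1 line per window. A red bar spans a whole p53 pair including its gap, a light bar marks a half-site without a mismatch and a blue bar marks CANNTG; pairs stand only in the upstream Cdkn1a window and the Ccng1 window.

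The values are log2 expression per probe set as the authors deposited them, so a difference of 1 is a doubling. A probe set was tested if it lay above its array's median, 3.14 to 3.195, on at least 3 of the 6 arrays. Of the 26 member probe sets 20 passed this filter. The other 6 stayed at or under 2.46 on all arrays, near the lower end of the scale. These were 2 probe sets of Ccnd3 and 1 each of Cdkn1a, Cdkn1b, Rb1 and Mdm2. The p-values rest on the spread among only 6 pools, and 3 per genotype limits what can be resolved.

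Olig2 itself, the targeted gene, read 7.48, 7.53 and 7.76 on knockout arrays, against 8.20, 8.22 and 8.42 on wild-type arrays (log2). The knockout arrays all lay below the wild-type arrays, with a difference of -0.69 (SE 0.11, limma adjusted p = 0.511). No source used here states whether its probe set reads the removed part. Of the markers of the ventral telencephalon 7 were measured, 2 higher and 5 lower in the knockout. Gsx2, of lateral ganglionic eminence progenitors, was 0.54 higher (all knockout arrays above, limma adjusted p = 0.511) and Lhx6, of medial ganglionic eminence neurons, differed by -0.33 (all knockout arrays below), while the 5 others overlapped, at -0.15 to 0.13. Nkx2-1, which defines the medial ganglionic eminence, was near the lower end of the scale, at 2.69 to 3.36 on the 6 arrays. Lhx6 read 8.22 to 9.10 on the same arrays. The 6 thalamus markers were all measured, although the label names the telencephalon. Their mean log2 level was 6.82 to 7.42 on knockout arrays, against 7.67 to 8.09 on wild-type arrays. All knockout arrays lay below for 4 of them, while Lhx9 (-0.52) and Lhx2 (0.07) overlapped between genotypes. No probe set of the 22565 tested passed limma's adjusted p of 0.05 (0.0%), while 2121 had an unadjusted p under 0.05 (9.4%).

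None of the 20 measured member probe sets passed the adjusted threshold, and their adjusted p-values in limma ranged from 0.511 to 0.997. At an unadjusted p under 0.05 there were 4 (20%, against 9.4% of all tested probe sets), of which 3 belong to Ccnd2 and 1 to Ccnd1. They split into 2 higher in the knockout (10%, against 4.98%) and 2 lower (10%, against 4.42%). The 3 of Ccnd2 share a gene and so are not separate results. The members were chosen with earlier results of these data known, so their shares are no independent test. Leaving out knockout replicate 4, knockout replicate 5 or wild-type replicate 5 gave a count of 2 in each case (10%). The share of all tested probe sets was then 5.34%, 4.97% and 6.76%, in that order. The knockout range lay wholly above the wild-type range at 3 member probe sets (15%, against 8.96% of all tested), and wholly below it at 2 (10%, against 7.25%). The median log2 difference was 0.00 over the 20 member probe sets, with 10 higher and 10 lower in the knockout, and it was also 0.00 over all tested probe sets. When each gene was represented by its brightest measured probe set, the groups overlapped for all 9 genes.

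**Figure D2:**
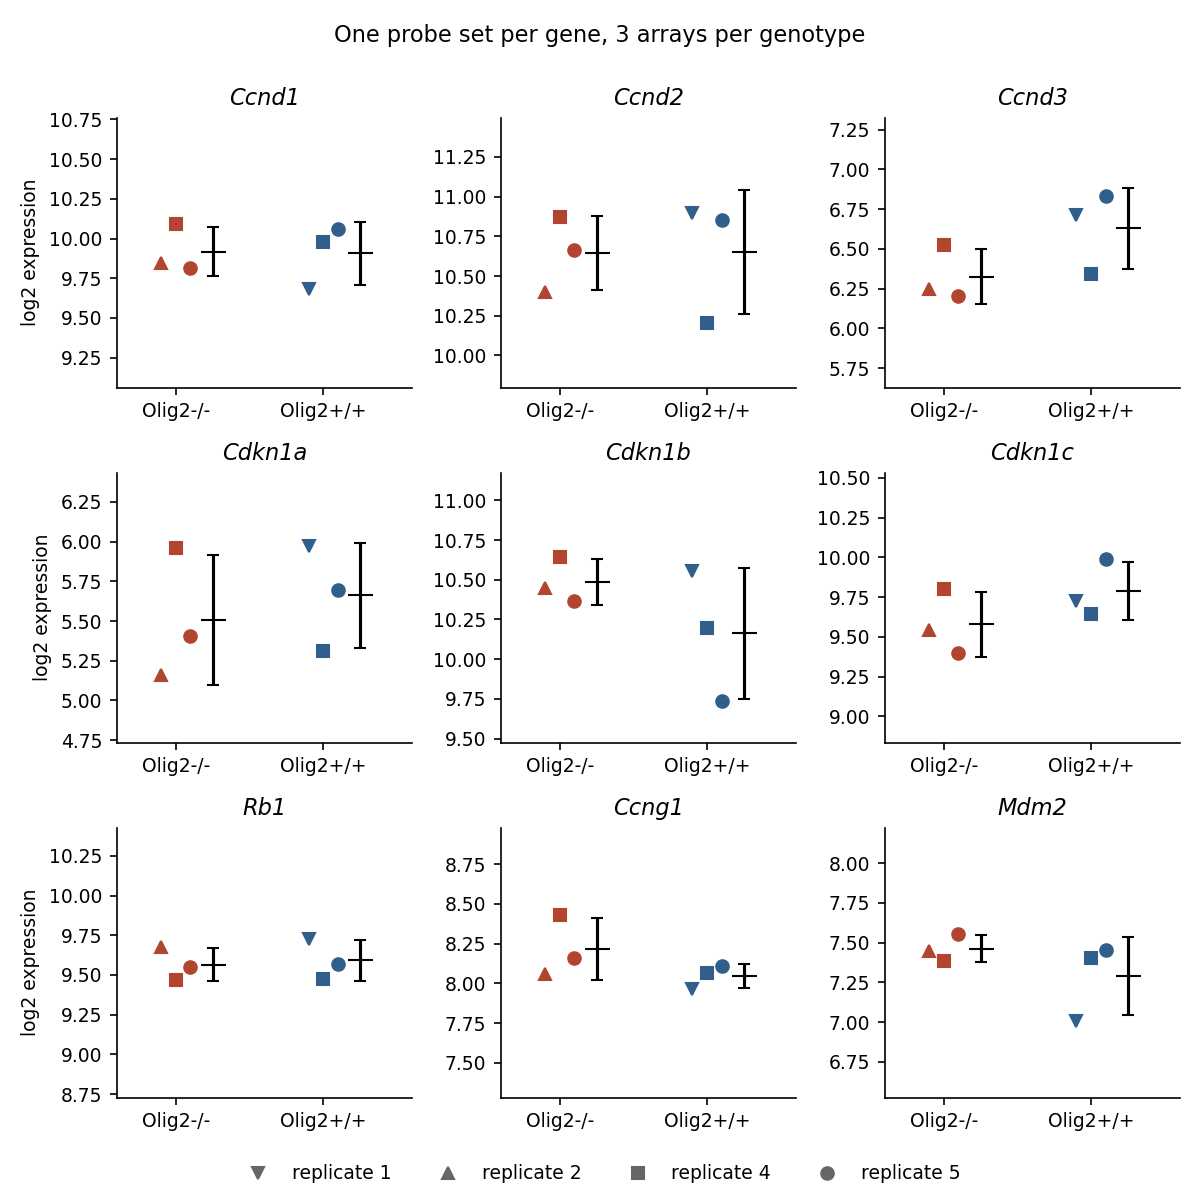
Log2 expression of the 9 member genes on each array, at the brightest measured probe set of each gene, with the knockout left of the wild type. Marker shapes give the replicate number, the bar and whiskers beside the points give mean and SD (n = 3), and all panels span the same log2 range; the groups overlap in each of the 9 panels.

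Among the D cyclins, Ccnd1, the D cyclin that answers mitogens and is strong in dividing forebrain progenitors, was read by 3 measured probe sets. The brightest, 1417420_at, read 9.84, 10.09 and 9.81 on knockout replicates 2, 4 and 5 and 9.68, 9.98 and 10.06 on wild-type replicates 1, 4 and 5. The groups overlapped and their means differed by 0.01 (SE 0.13, 95% interval -0.32 to 0.34, limma adjusted p = 0.985). A second probe set, 1448698_at, also overlapped, with a log2 difference of -0.06 (95% interval -0.67 to 0.55). The third, 1417419_at, did not overlap between genotypes. It read 8.11, 7.45 and 7.32 in knockout pools, against 8.20, 8.21 and 8.61 in wild-type pools. Here all knockout arrays were below all wild-type arrays, replicate 2 by the least, and the knockout level was 1.64-fold lower (log2 difference -0.71, SE 0.24, unadjusted p = 0.026, limma adjusted p = 0.511).

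Ccnd2, a D cyclin whose mRNA is carried to the basal endfeet of radial glia in mouse cortex, had 7 measured probe sets, which went both ways. The brightest over the 6 arrays, 1416122_at, read 10.40, 10.87 and 10.67 in knockout pools, against 10.90, 10.20 and 10.85 in wild-type pools. Wild-type replicate 4 was the lowest of these 6 values, the groups overlapped, and the log2 difference was -0.01 (SE 0.22, 95% interval -0.56 to 0.55), or 0.015 after median centring. At 2 probe sets of Ccnd2 every knockout array was above every wild-type array. One of them, 1434745_at, read 10.51, 10.56 and 10.71 in knockout pools, against 10.28, 10.27 and 10.36 in wild-type pools. Its log2 difference was 0.29 (SE 0.08, unadjusted p = 0.0112, limma adjusted p = 0.511). The other, 1416124_at, read 7.61, 7.51 and 7.93 in knockout pools, against 6.91, 7.18 and 6.99 in wild-type pools. The log2 difference was 0.66 (SE 0.14, unadjusted p = 0.00341, limma adjusted p = 0.511), and no other member probe set had a lower p.

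The opposite held for another probe set of Ccnd2, 1448229_s_at, whose suffix marks probes that can match more than 1 transcript. It read 7.758, 6.78 and 6.72 in knockout pools, against 8.40, 7.757 and 7.78 in wild-type pools. Knockout replicates 4 and 5 were well below the wild type, but replicate 2 was level with wild-type replicate 4, so the groups overlapped. The log2 difference was -0.89 (SE 0.33, unadjusted p = 0.038, limma adjusted p = 0.511). The 3 remaining probe sets overlapped between genotypes, with log2 differences of 0.21 for 1455956_x_at, 0.21 for 1430127_a_at and -0.27 for 1416123_at. Leaving out single arrays moved these to 0.04 to 0.33, 0.11 to 0.31 and -0.49 to -0.10, in that order of probe sets. Like 1448229_s_at, 1416123_at was lowest on knockout replicates 4 and 5. No source used here places the probe sets on the transcripts.

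Because probe sets of 1 gene disagreed, the gap between a pair of them was taken on each array, for 4 pairs chosen after their values were seen. The probe set of lowest genotype difference was paired with each one higher in the knockout at an unadjusted p under 0.05. Where there was none, it was paired with the brightest. The genotype differences thus set the choice, so the permutation p-values are no independent test, and their adjustment covers only the chosen pairs. For Ccnd2, 1448229_s_at minus 1416124_at was 0.15, -0.73 and -1.21 in knockout pools, against 1.48, 0.58 and 0.79 in wild-type pools. The groups did not overlap, and the gap differed by -1.55 on the log2 scale (exact permutation p = 0.1, two-sided, the smallest that 3 against 3 arrays allow; adjusted over the 4 pairs 0.2). The gap of 1448229_s_at to 1434745_at also did not overlap, at -3.51 ± 0.66 in knockout pools, against -2.33 ± 0.39 in wild-type pools (SD, n = 3 each, exact permutation p = 0.1, adjusted 0.2). For Ccnd1, 1417419_at minus 1417420_at was -1.73, -2.64 and -2.49 in knockout pools, against -1.48, -1.77 and -1.45 in wild-type pools, where knockout replicate 2 lay among the wild-type values (exact permutation p = 0.2, adjusted 0.2). For Mdm2, the gap of 1423605_a_at to 1427718_a_at overlapped between genotypes (exact permutation p = 0.2, adjusted 0.2).

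**Figure D3:**
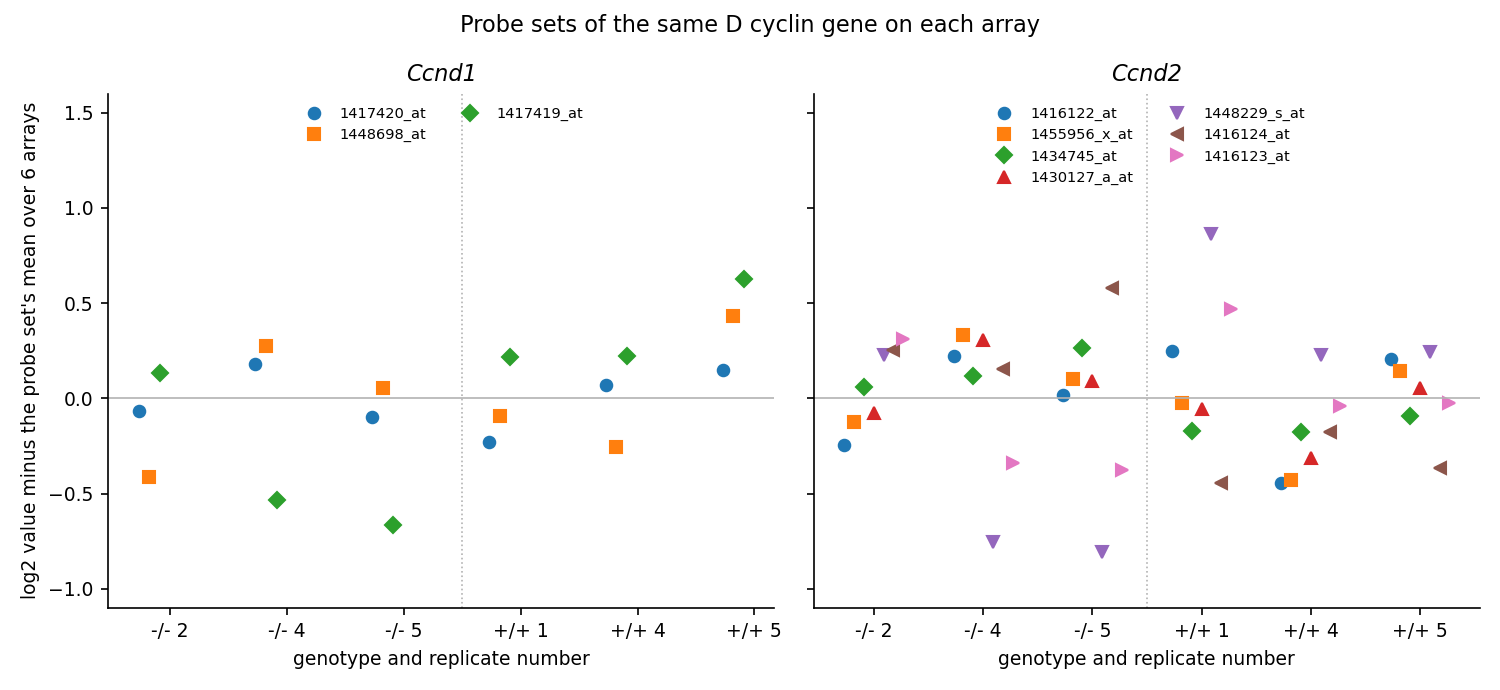
Values of the 3 measured probe sets of Ccnd1 and the 7 of Ccnd2 on each array, as the log2 value minus that probe set's mean over the 6 arrays, knockout arrays left of the dotted line and wild-type arrays right of it. The probe sets 1417419_at, 1448229_s_at and 1416123_at are low on knockout replicates 4 and 5 and not on knockout replicate 2. The probe set 1416124_at is above 0 on all knockout arrays.

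Ccnd3, the D cyclin better known from lymphoid and muscle cells, had 1 measured probe set. It read 6.25, 6.52 and 6.20 in knockout pools, against 6.71, 6.34 and 6.83 in wild-type pools. Only wild-type replicate 4 lay within the knockout range, and the log2 difference was -0.30 (SE 0.16, 95% interval -0.70 to 0.09, limma adjusted p = 0.518), or -0.20 if wild-type replicate 5 is left out.

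The CDK inhibitors each had 1 measured probe set, and none separated the genotypes. Cdkn1a, encoding p21, read 5.16, 5.96 and 5.41 in knockout pools, against 5.98, 5.31 and 5.70 in wild-type pools. Its values spread as widely within a genotype as between them, and the means differed by -0.15 (SE 0.26, 95% interval -0.79 to 0.48, limma adjusted p = 0.803). Its sign turned in some settings, with 0.02 if knockout replicate 2 is left out.

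Cdkn1b, encoding p27, read 10.45, 10.65 and 10.37 in knockout pools, against 10.56, 10.19 and 9.74 in wild-type pools. Wild-type replicate 5 was the lowest and wild-type replicate 1 lay among the knockout arrays. The log2 difference was 0.32 (SE 0.22, 95% interval -0.21 to 0.86, limma adjusted p = 0.559). It depended on single arrays, with 0.11 if wild-type replicate 5 and 0.52 if wild-type replicate 1 is left out. With array weights it was 0.55, and with the replicate block 0.54. That block compares only the arrays numbered 4 and 5, because the other replicate numbers each occur in 1 genotype. Cdkn1c, the imprinted gene of p57, which is expressed from the maternal allele, read 9.54, 9.80 and 9.40 in knockout pools, against 9.73, 9.65 and 9.99 in wild-type pools. The groups overlapped through knockout replicate 4, and the means differed by -0.21 on the log2 scale (SE 0.14, 95% interval -0.56 to 0.14, limma adjusted p = 0.567). It was -0.11 if wild-type replicate 5, -0.12 if knockout replicate 5 and -0.32 if knockout replicate 4 is left out. Neither Cdkn1b nor Cdkn1c passed the test.

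Rb1, whose protein is held inactive by D cyclin kinases, had the narrowest interval of the 9 genes at the probe sets that stand for them. It read 9.68, 9.47 and 9.55 in knockout pools, against 9.73, 9.47 and 9.57 in wild-type pools. The log2 difference was -0.03 with a 95% interval of -0.27 to 0.22 (limma adjusted p = 0.921).

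Of the p53 targets, Ccng1, which encodes cyclin G1, had 3 measured probe sets, all with a difference above 0. The sign of 1450017_at turned in 5 of 14 alternative settings, array weights among them. The brightest read 8.06, 8.43 and 8.16 in knockout pools, against 7.96, 8.07 and 8.11 in wild-type pools, where only knockout replicate 2 lay within the wild-type range (log2 difference 0.17, SE 0.12, limma adjusted p = 0.564). That difference was 0.06 if knockout replicate 4 is left out. At 1450016_at the values were 6.53, 6.67 and 6.61 in knockout pools, against 5.97, 6.46 and 6.43 in wild-type pools. The knockout arrays were all above the wild-type arrays there, by 0.32 on average (SE 0.15, unadjusted p = 0.0764, limma adjusted p = 0.511), or by 0.16 if wild-type replicate 1 is left out and 0.20 with the replicate block. At 1450017_at the log2 difference was 0.01 and the groups overlapped.

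Mdm2, the ubiquitin ligase that limits p53, had 2 measured probe sets that differed in sign. The brighter, 1427718_a_at, read 7.45, 7.39 and 7.55 in knockout pools, against 7.01, 7.41 and 7.45 in wild-type pools, with wild-type replicate 1 apart from the other 5 arrays. Its log2 difference was 0.17 (SE 0.14, limma adjusted p = 0.602), or 0.03 if wild-type replicate 1 is left out. The other, 1423605_a_at, read 7.04, 7.05 and 7.01 in knockout pools, against 7.34, 7.10 and 7.11 in wild-type pools. All knockout arrays were below all wild-type arrays, by a log2 difference of -0.15 (SE 0.09, limma adjusted p = 0.533), or -0.07 if wild-type replicate 1 is left out. Ccng1 and Mdm2 did not pass the test, nor did Cdkn1a, the third p53 target among the members.

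**Figure D4:**
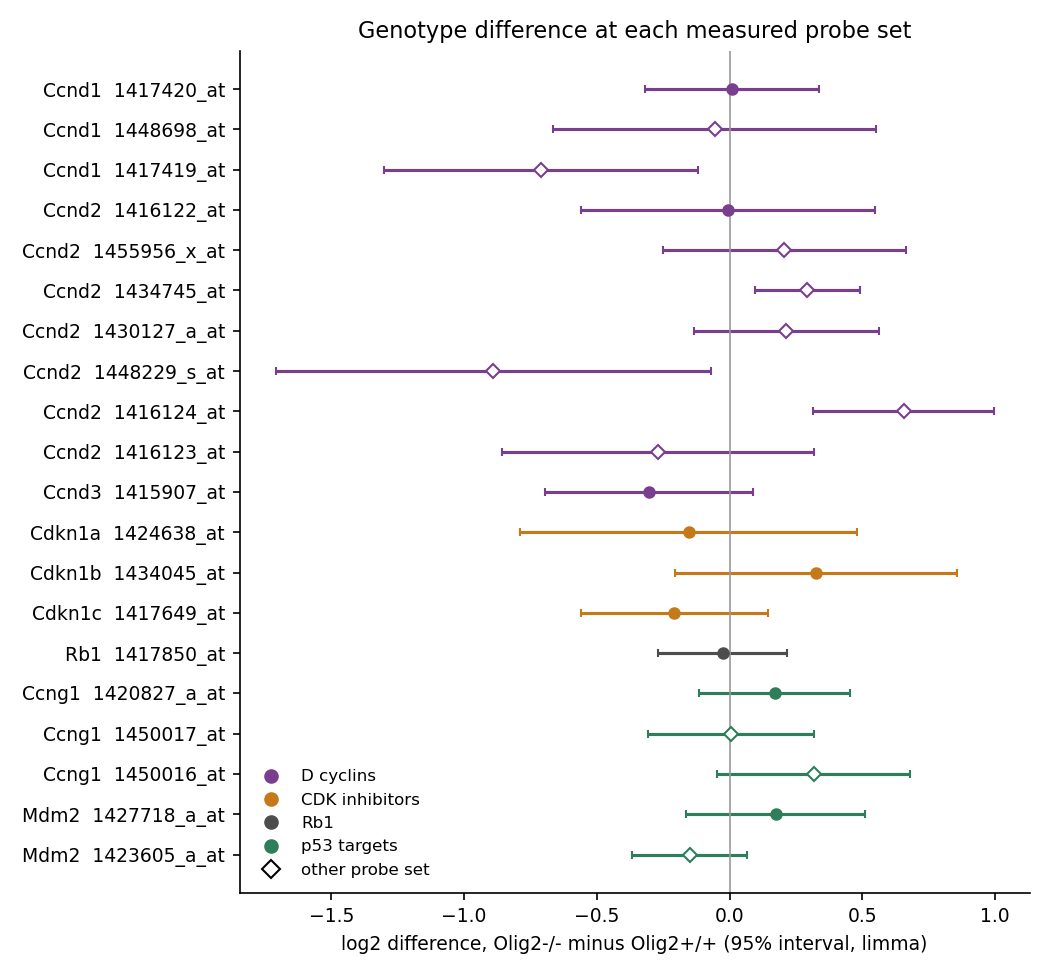
Log2 difference between genotypes, knockout minus wild type, at each of the 20 measured member probe sets, with limma's 95% interval. Filled circles mark the probe set that stands for its gene and open diamonds the others; the intervals of 16 probe sets span 0, and the 4 that do not belong to Ccnd1 and Ccnd2.

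The genes that act beside the members were taken from lists of pathway genes, and none of their measured members passed the adjusted threshold. At the probe set that stands for the gene, only Cdk6 and Cop1 among the lower genes, and Cdkn2c, Gsk3b and Sesn1 among the higher ones, had an unadjusted p under 0.05 in limma. These are 5 of the 72 genes measured over the 6 lists (6.94%), against 7.9% of all genes. The lists, too, were chosen with earlier results of these data known. Of 21 partners of the D cyclins at the transition into S phase 20 were measured, 10 higher and 10 lower in the knockout, with a median log2 difference of -0.01. The D cyclin kinases were the 2 of lowest p. Cdk6 read 8.34, 8.07 and 7.94 in knockout pools, against 8.52, 8.35 and 8.45 in wild-type pools, all knockout arrays below (log2 difference -0.32, limma adjusted p = 0.511), and a second probe set gave -0.31 with overlap. Cdk4 differed by -0.18, and its other probe sets by -0.13 and -0.16, all with overlap. E2f2, an E2F activator, differed by -0.33 and by -0.17 at a second probe set, and Ccne2, the cyclin E that follows the D cyclins, by 0.25, with all knockout arrays above for Ccne2.

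Of the 4 INK4 inhibitors, which block CDK4 and CDK6, Cdkn2a and Cdkn2b were too dim to be tested. Cdkn2c read 5.71, 5.67 and 5.46 in knockout pools, against 5.18, 5.47 and 5.12 in wild-type pools, with overlap through wild-type replicate 4 (log2 difference 0.36, unadjusted p = 0.0293, limma adjusted p = 0.511). Cdkn2d differed by 0.10, and its genotypes did not overlap, the knockout being higher. Of 10 symbols listed for the turnover of D cyclins and KIP inhibitors, of which Skp1a is an older symbol of Skp1, 8 genes were measured, 4 higher and 4 lower, with a median of 0.00. The kinase Gsk3b, which marks cyclin D1 for export and degradation, was 0.86 higher at its brightest probe set (limma adjusted p = 0.511), but its 5 other measured probe sets ranged from -1.26 to 0.11. Cul1, Fbxw7 and Skp1, parts of SCF ubiquitin ligases, differed by -0.13, -0.08 and 0.12, a second probe set of Fbxw7 by -0.15, and a second one of Skp1 by 0.38 with all knockout arrays above.

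Among 26 further p53 targets 19 were measured, with 14 higher and 5 lower in the knockout and a median log2 difference of 0.01, against 0.00 over all genes. Sesn1, a sestrin, was higher by 0.31 at its brightest probe set without overlap (limma adjusted p = 0.511), but its 2 other probe sets gave -0.32 and -0.33. Ddb2, a sensor of damaged DNA, was higher at both probe sets without overlap, by 0.20 and 0.27. It read 6.03, 6.10 and 6.01 in knockout pools, against 5.87, 5.69 and 5.98 in wild-type pools at the brighter one (limma adjusted p = 0.511). Plk2, a kinase induced by p53, differed by 0.29, and Btg2, an antiproliferative factor of neurogenic progenitors, by 0.74. Btg2 read 7.59, 7.69 and 7.53 in knockout pools, against 5.97, 7.64 and 6.99 in wild-type pools, so its difference came with a wide wild-type spread, and a second probe set differed by 0.00.

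Of 17 relatives and regulators of p53 16 were measured, with 5 higher and 11 lower and a median of -0.11. Cop1, a ubiquitin ligase for p53, read 9.76, 9.79 and 9.75 in knockout pools, against 10.31, 9.87 and 10.04 in wild-type pools (log2 difference -0.31, limma adjusted p = 0.511). Trp53bp2, a p53-binding protein, differed by -0.17, also with all knockout arrays below, but by -0.07 with overlap at a second probe set. Atm, the kinase that activates p53 after DNA breaks, differed by -0.50 and by -0.08 at a second probe set, both with overlap, and Ppp1r13l, an inhibitor of p53, by -0.21. Of 9 genes of cell cycle exit, Btg2 among them, 8 were measured, 5 higher and 3 lower, with a median of 0.10. Tob1, an antiproliferative relative of Btg2, was 0.17 higher without overlap (limma adjusted p = 0.511), Tob2 differed by -0.27 and -0.14 at its probe sets, and Prox1 by 0.22 at its brightest probe set but by -0.62 and -0.48 at the others.

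**Figure D5:**
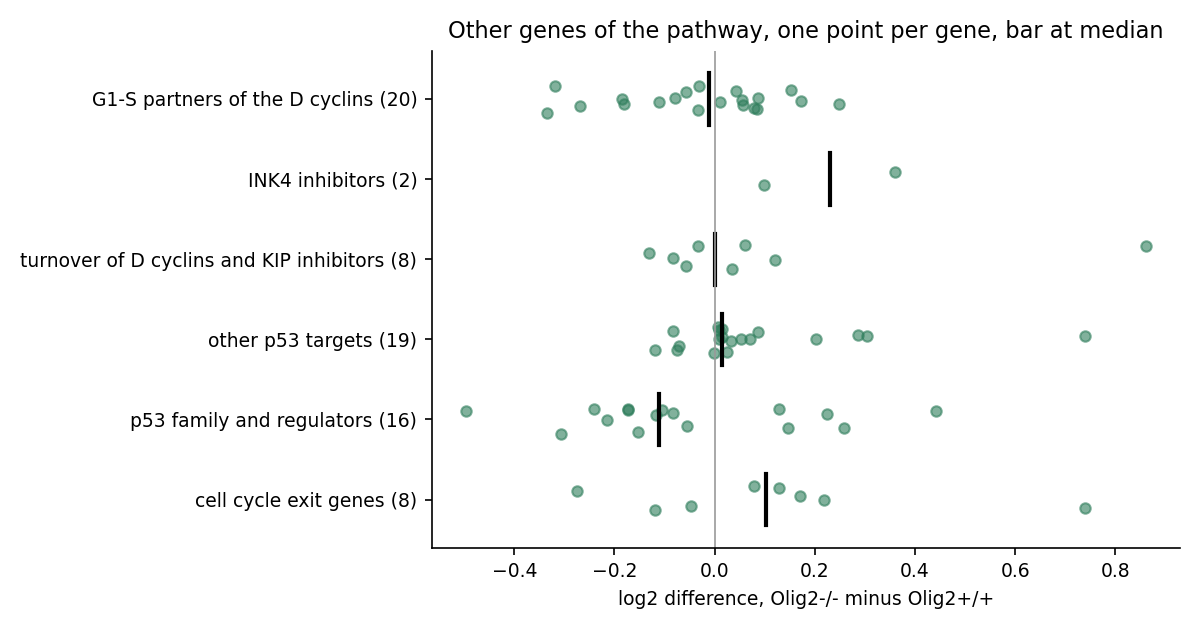
Log2 difference between genotypes, knockout minus wild type, for each measured gene of 6 pathway lists, 1 point per gene at its brightest measured probe set, with the number of genes in brackets and a bar at the list's median. Medians lie between -0.11 and 0.10 except for the 2 INK4 inhibitors at 0.23.

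Markers of cell types in or near the sample were read on the same arrays. The mean log2 level of 9 proliferation markers was 9.93, 9.95 and 9.88 on knockout arrays, against 9.66, 9.87 and 9.999 on wild-type arrays, with wild-type replicate 1 the lowest. Of these markers 5 were higher and 4 lower in the knockout. Only Mcm4 separated the genotypes, 0.40 higher with all knockout arrays above (limma adjusted p = 0.511). The 8 markers of young neurons averaged 11.29, 11.16 and 11.17 in knockout pools, against 11.53, 11.36 and 11.30 in wild-type pools, without overlap. That separation came with Ina (-0.60) and Mapt (-0.56), each with all knockout arrays below, while the other 6 markers overlapped between genotypes, at -0.13 to 0.02. In tissue RNA, fewer cells of a type and less RNA per cell cannot be told apart. Of 6 markers of meninges and mesenchyme only Col3a1 was measured, and the mean level of all 6 was 2.75 to 4.79 in the knockout, highest on replicate 2, and 2.84 to 3.61 in the wild type. Col3a1 itself read 8.10, 4.04 and 4.09 in knockout pools, against 6.20, 4.35 and 4.67 in wild-type pools. For the 9 endothelium and pericyte markers, of which Cdh5 was too dim, the mean level was 5.05 to 5.15 in the knockout and 4.93 to 5.09 in the wild type. For 5 of 6 blood cell markers, of which Hba-a1 was too dim, the mean level was 7.66 to 8.06 in the knockout and 7.50 to 8.06 in the wild type. The 7 microglia markers, of which Aif1, Fcrls and C1qa were too dim, averaged 3.48 to 3.56 in the knockout and 3.35 to 3.57 in the wild type. The 4 choroid plexus markers, of which Aqp1, Folr1 and Kl were too dim, averaged 2.92 to 4.21 in the knockout and 2.57 to 4.48 in the wild type. These means understate the spread of the measured marker. Ttr read 9.99, 6.42 and 4.85 in knockout pools, against 8.36, 10.96 and 3.46 in wild-type pools. The part of these cell types, or of thalamic tissue, in the member values was not tested.

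For the 4 member genes with the widest range over the 6 arrays, the 3 genes of most similar profile were found among 10629 others. Likeness was the mean absolute difference between values centred on each gene's own mean, over 6 arrays. A lowest array or genotype difference shared with the member follows from this choice and is not a separate result. Cdkn1b, with a range of 0.91, came closest to Dock9, an activator of CDC42 (0.07), Fam241b (0.07) and the Polycomb component Pcgf1 (0.08). All of these were lowest on wild-type replicate 5. Cdkn1a, with a range of 0.82, came closest to Zswim1 (0.07), the imprinted Notch-like protein Dlk1 (0.07) and the ubiquitin-conjugating enzyme Ube2r2 (0.08). Ccnd2, with a range of 0.69, came closest to Dexi (0.05), Dmac2l (0.07) and Fam181b (0.07), which like Ccnd2 were lowest on wild-type replicate 4. Ccnd3, with a range of 0.63, came closest to Prex1, an activator of RAC (0.04), Eif5a2 (0.05) and the zinc finger factor Trps1 (0.05).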

How the data were processed

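The data are Affymetrix Mouse MOE430 2.0 arrays, and the deposited log2 values, 1 per probe set, were used unchanged. The design text states that images went through GCOS and MAS 5.0 and the probe signals through GCRMA, with quantile normalization. No source used here gives their versions. GCRMA leaves a floor, within 0.03 of which lay 33.2% to 33.7% of each array's values, and quantile normalization hides a change in total RNA. The platform annotation gives 1 gene symbol for 34945 of the 45037 non-control probe sets and several for 932, and 9160 were unnamed here.

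Tests used limma 3.58.1 (lmFit, then eBayes) under R 4.3.3 on the 22565 probe sets that exceeded the array median on 3 or more of the 6 arrays. They were two-sided with Benjamini-Hochberg adjustment over all of these, a threshold of 0.05 and no block. The brightest of these stood for each of 10630 genes. The step was tested on data made with known differences. Members and lists were chosen with earlier results of these data known. Named were all members, Olig2, up to 4 genes of lowest p per pathway list and the nearest profiles. Other filters, normalizations, variance models, array weights, a replicate block and each array left out were tried.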

Additional observations from a re-analysis of the deposited data

How the results depend on the processing

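No probe set and no member probe set passed the adjusted threshold in limma under the 14 alternative settings, and the lowest adjusted p of a member probe set under them was 0.185. The 2121 probe sets at an unadjusted p under 0.05 became 3491 with array weights, 3276 when knockout array 2 and wild-type array 4 were dropped together, and 1121 to 3490 with each array left out in turn (1205 when knockout array 4 was dropped, 1121 for knockout array 5, 1402 for wild-type array 1 and 3490 for wild-type array 4). The 4 member probe sets became 6 with array weights (30%, against 15.5% of all tested probe sets). With no filter on dim probe sets they became 2 (7.69% of 26, against 4.32%). With an array left out they became 2 to 5 (10% to 25%, against 4.97% to 15.5%). For 14 of 20 member probe sets the sign of the difference was the same in all alternatives. The other 6 had small differences. Leaving out single arrays moved them from -0.10 to 0.085 (Ccnd1 1417420_at), -0.21 to 0.15 (Ccnd1 1448698_at), -0.23 to 0.12 (Ccnd2 1416122_at), -0.38 to 0.020 (Cdkn1a), -0.085 to 0.043 (Rb1) and -0.081 to 0.11 (Ccng1 1450017_at). With the replicate block the signs turned for Ccnd1 1417420_at (-0.067), Ccnd1 1448698_at (0.077), Ccnd2 1416122_at (0.24) and Cdkn1a (0.18), with array weights for Ccnd1 1417420_at (-0.089) and Ccng1 1450017_at (-0.040), and with median centring for Ccnd2 1416122_at (0.015). As the mean of all measured probe sets Ccnd1 differed by -0.25 and Ccnd2 by 0.029. The cause was not tested. Numbers 4 and 5 occur in both genotypes without a stated pairing. Deviations from the group means correlated at -0.29 between arrays numbered 4 and at 0.32 between those numbered 5. Between differently numbered arrays these correlations ran from -0.36 to 0.38. The replicate block rests its genotype difference only on arrays numbered 4 and 5. It gave 2014 probe sets (8.925%) and 5 member probe sets (25%) at an unadjusted p under 0.05 in limma.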
